A study of Mus musculus with 8 samples.

Results

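Messenger RNA levels of 8 genes of neurotrophic factor signalling were followed in the mouse ventral pallidum (VP), in mRNA bound to the ribosomes of glutamatergic neurons and in mRNA of the same tissue lysate. The genes were the neurotrophins Bdnf and Ntf3, the Trk receptors Ntrk2 and Ntrk3, the sorting receptor Sort1, the receptor tyrosine kinase Ret and its co-receptors Gfra1 and Gfra2. They were taken by gene symbol from the deposited table, which lists 14353 genes, and all 8 had 1 row there. Mice were homozygous for VGluT2-Cre and heterozygous for Rpl22 carrying the RiboTag, so that ribosomes received a hemagglutinin (HA) tag in cells with Cre, and none was treated. This genotype was the same in both fractions of every pool, as both came from the same animals. Cre follows the vGluT2 gene Slc17a6, so any cell that expresses or once expressed Slc17a6 can carry tagged ribosomes. Tissue of 7 to 11 mice of both sexes, aged 9 to 16 weeks, was combined in each of 4 pools (VP2.11, VP2.6, VP2.2 and VP1.6), with 38 mice (15 male and 23 female) in all. Each pool gave 1 TRAP library, from translating ribosome affinity purification with an antibody against HA and labelled as glutamatergic neurons, and 1 INPUT library, labelled as all neurons and glia. The labels describe INPUT as lysate set aside before the beads, whereas the methods also name an unbound fraction as the one sequenced. Dissected tissue can hold some neighbouring striatum.

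Neurotrophins are secreted growth factors that promote survival, growth and synaptic plasticity of neurons. They are made as proforms that are cut to the mature factor. Mature BDNF acts mainly through TrkB, the product of Ntrk2, and neurotrophin-3, the product of Ntf3, mainly through TrkC, the product of Ntrk3. Sortilin, the product of Sort1, binds proforms and steers them and other cargo through the secretory and endosomal pathways. Glial cell line-derived neurotrophic factor (GDNF) and its relatives bind GFRα co-receptors anchored to the cell surface. The bound complex then engages the tyrosine kinase RET. GFRα1 prefers GDNF and GFRα2 prefers neurturin.

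Bdnf (ENSMUSG00000048482) is transcribed from several promoters, whose transcripts were all pooled in 1 value per library. One sequence is shown for each of the 2 ligand genes, since these had the largest TRAP to INPUT ratios of the 8. Letters in capitals mark the core of the cAMP response element (CRE), the motif read by CREB family factors, searched as TGACG and, for the other strand, CGTCA. Both are RefSeq sequences of GRCm38.p6 that span the 250 bases before an annotated transcript start, 5′ to 3′ on the strand of the gene. The Bdnf window, chr2:109692186-109692435 on the plus strand, lies within the gene and on none of its annotated exons. The Ntf3 window, chr6:126164961-126165210 on the minus strand, also lies within its gene and off its exons.
Bdnf: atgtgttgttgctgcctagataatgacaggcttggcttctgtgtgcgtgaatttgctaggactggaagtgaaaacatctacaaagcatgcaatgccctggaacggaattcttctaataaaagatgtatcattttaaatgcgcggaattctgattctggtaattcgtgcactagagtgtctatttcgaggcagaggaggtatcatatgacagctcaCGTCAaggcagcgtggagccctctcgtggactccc
Ntf3: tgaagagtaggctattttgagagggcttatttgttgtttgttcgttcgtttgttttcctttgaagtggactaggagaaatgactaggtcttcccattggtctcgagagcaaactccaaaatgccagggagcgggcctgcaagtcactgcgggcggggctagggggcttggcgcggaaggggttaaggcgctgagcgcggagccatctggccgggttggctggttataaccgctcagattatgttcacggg
RefSeq windows were at hand for 4 of the 8 genes, 7 for Bdnf, 2 for Ntf3, 1 for Ntrk2 and 1 for Gfra1. Of these 11 windows the core occurred in 1, the Bdnf window shown, against 17.8% of all 32851 windows of the same length. A match describes letters only, and the levels below do not tell which start a Bdnf transcript used.

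Levels are deposited log2 CPM (reads per gene scaled to library size), given here as CPM, and differences are TRAP minus INPUT on the log2 scale. Slc17a6, the gene that drives Cre, reached 143 ± 13.6 CPM in TRAP against 25.9 ± 10.3 CPM in INPUT (SD over n = 4 libraries for each). RNA of marker genes of other cells was still present in TRAP, and whether it came from tagged cells was not tested. The astrocyte gene Gfap was at 17.5 CPM in TRAP and 53.5 in INPUT, Aqp4 at 23.5 and 47.7, and the vesicular GABA transporter gene Slc32a1 at 10.9 and 25.5. Of 3 GABAergic markers, Slc32a1 was lower in both fits, while Gad1 and Gad2, named after their values were seen, passed in neither, at 613 and 528 CPM in TRAP and 516 and 560 CPM in INPUT. The list summed to 918 to 1573 CPM in TRAP and 584 to 1394 CPM in INPUT, with a median difference of -0.05. In bulk samples, fewer cells of a type and less RNA per cell cannot be told apart. For 14247 of the 14249 genes tested, 1 level could be found that lay inside the TRAP to INPUT range of every pool at once. Consequently, all 3320 genes that were higher in TRAP in 4 of 4 pools also had every TRAP library above every INPUT library. Separation of the fractions therefore adds nothing here to the sign in the 4 pools, and levels of different pools are not independent measurements. SDs and ranges over libraries describe the deposited values and may not equal the spread of independent libraries. The comparison is given without the pool and with the pool as a block, the latter resting on within-pool differences alone.

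Bdnf, Ntf3, Ntrk2, Ntrk3, Sort1 and Ret were higher in TRAP than INPUT, Gfra1 was lower in the fit without the pool only, and Gfra2 passed in neither fit. At an adjusted p under 0.05 in limma, 6 of the 8 genes were higher, against 23.2% of all genes tested, and 1 was lower, against 24.8%. With the pool as a block, the same 6 were higher, against 15.4% of all genes, and 0 were lower, against 16.8%. The 6 were also higher in 4 of 4 pools, as were 23.3% of genes, and had no TRAP library at or below an INPUT library, as held for 23.3%. The median difference of the 8 was 1.03, beside -0.05 over all genes tested. The 8 were chosen with earlier results of these data known, so these counts and the median describe them and are no test of the set. Ntf3 and Ret, which had only 2 INPUT libraries over 1 CPM, entered the test through TRAP, where they were high. Among genes over 1 CPM in all 8 libraries, 6 of the 8 could be tested, and 4 of these were higher and 1 lower. Of all 12124 genes tested under that filter, 3206 were higher and 2783 lower.

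**Figure D1:**
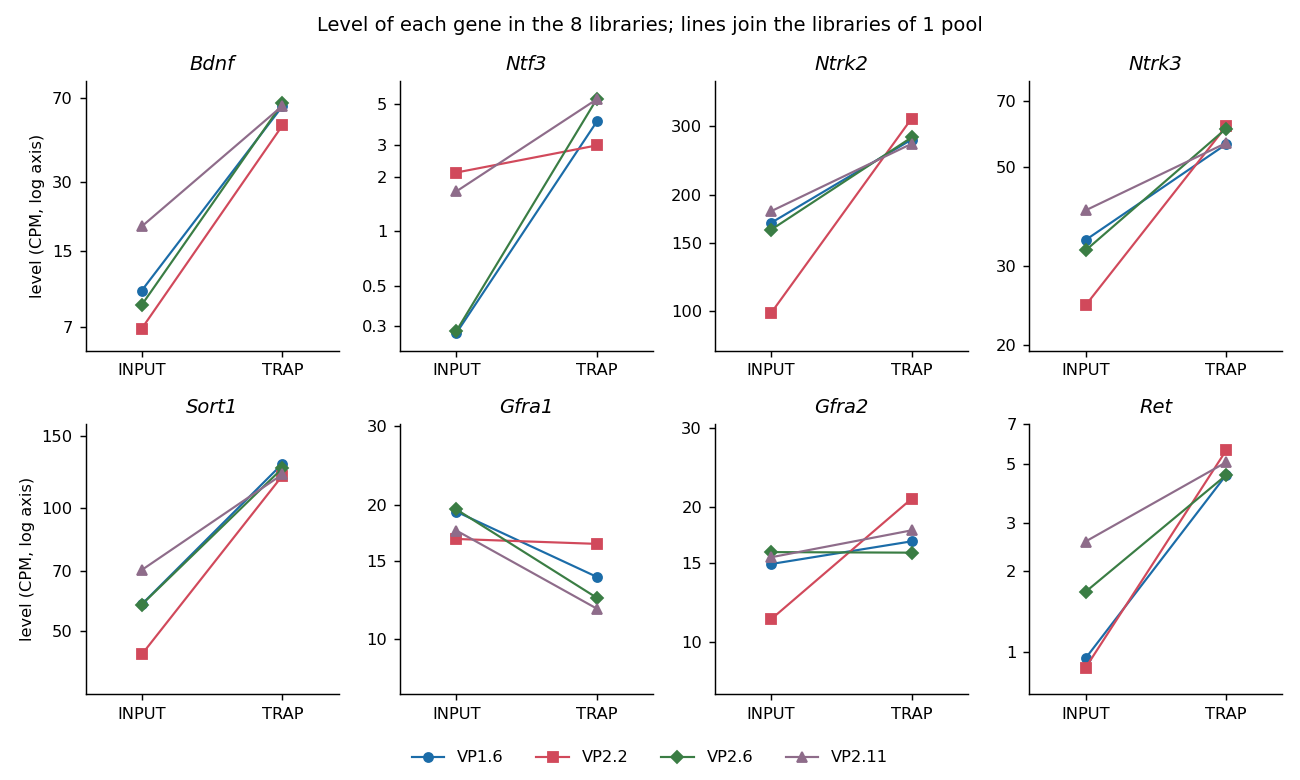
Level of each gene (CPM, log axis with a range of its own per gene) in the INPUT and TRAP library of each pool, with a line joining the libraries of 1 pool. Lines climb from INPUT to TRAP in every pool for Bdnf, Ntf3, Ntrk2, Ntrk3, Sort1 and Ret, descend for Gfra1, and for Gfra2 are close to level in all pools but VP2.2.

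Bdnf lies on chromosome 2 of GRCm38 from 109674700 to 109727007 on the plus strand and has 11 annotated transcripts. In TRAP it stood at 64.2, 52.9, 66.1 and 64.4 CPM in pool VP1.6, then VP2.2, then VP2.6 and last VP2.11. In INPUT, in the same order, it stood at 10.1, 6.86, 8.70 and 19.2 CPM. The highest INPUT library was VP2.11 and the lowest TRAP library VP2.2. The means were 61.9 ± 6.08 CPM (SD, n = 4) and 11.2 ± 5.47 CPM (SD, n = 4), a 5.95-fold ratio on the log2 scale. Its log2 fold change was 2.57 (SE 0.27, or 0.26 with the pool in the model), with a limma adjusted p of 1.1e-04 for fraction alone and 1.3e-05 with the pool. By size of the difference, Bdnf was at rank 44 from the top of 14249 genes. Within pools the difference was 2.67, 2.95, 2.93 and 1.75, so VP2.11 differed least. The antisense gene Gm45346 covers 896 bases, or 14.4%, of the Bdnf exons. The strandedness of the counting was not given in the sources used here, so reads over that stretch cannot be assigned to 1 strand.

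Ntf3 (ENSMUSG00000049107), on chromosome 6 from 126101412 to 126166910 on the minus strand, was far less abundant. Its TRAP levels were 4.04, 2.98, 5.38 and 5.35 CPM in the same order of pools. Its INPUT levels were 0.275, 2.109, 0.283 and 1.66 CPM. The INPUT libraries thus fell into a pair near the lower end of the table and a pair at 1 to 3 CPM, and only 2 of the 4 were over 1 CPM. Ntf3 passed the filter on low values, which asks for over 1 CPM in 3 libraries, through its TRAP libraries. The means were 4.44 ± 1.16 CPM in TRAP against 1.08 ± 0.945 CPM in INPUT (SD over n = 4 libraries for each). The log2 fold change was 2.58 (SE 0.67, or 0.66 with the pool in the model), and limma gave an adjusted p of 0.0099 for fraction alone and 0.0088 with the pool. Differences within pools ran from 0.50 in VP2.2 to 4.25 in VP2.6, the widest spread of the 8 genes. Without the block, the adjusted p was 0.056 when VP1.6 was left out and 0.066 when VP2.6 was left out. On a log2(CPM + 1) scale, which damps low values, the difference was 1.48.

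Among the receptors for these ligands, Ntrk2 (ENSMUSG00000055254, chromosome 13, 58806569 to 59133970, plus strand) had the highest CPM of the 8 genes in either fraction. It stood at 277, 314, 281 and 271 CPM in TRAP and at 169, 98.7, 162 and 181 CPM in INPUT, in the pool order used above. VP2.2 held both the highest TRAP and the lowest INPUT value. The means were 286 ± 19.5 CPM (SD, n = 4) and 153 ± 36.8 CPM (SD, n = 4). On the log2 scale the fold change was 0.94 (SE 0.19, or 0.23 with the pool in the model), with a limma adjusted p of 0.0024 for fraction alone and 0.0072 with the pool. Left-out pools moved it between 0.70 without VP2.2 and 1.06 without VP2.11. One value per library pools the receptor forms. Of the 7 protein-coding transcripts annotated, 2 have 2463 coding bases and 5 have 1398 to 1476. Full-length TrkB carries a kinase domain that its truncated forms lack, and astrocytes are known to express a truncated form. Astrocyte genes were lower in TRAP in 6 of 8 in both fits, with a summed level of 354 to 543 CPM in TRAP and 697 to 937 CPM in INPUT. Whether forms of Ntrk2 differed between fractions was not tested.

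Ntrk3 (ENSMUSG00000059146, chromosome 7, 78175959 to 78738012, minus strand) had a similar ratio at a lower level. Its values were 56.1, 61.5, 60.8 and 56.5 CPM in TRAP and 34.3, 24.5, 32.5 and 39.9 CPM in INPUT. The TRAP libraries lay close together, and INPUT VP2.2 was again the lowest library. The means were 58.8 ± 2.84 CPM (SD, n = 4) and 32.8 ± 6.38 CPM (SD, n = 4). The fitted log2 fold change was 0.86 (SE 0.16, or 0.23 with the pool in the model), and the limma adjusted p was 0.0015 for fraction alone and 0.010 with the pool. When VP2.6 was left out, the fit with the block gave an adjusted p of 0.052. Both Trk receptor genes are unusually long in exon, at 19292 bases for Ntrk2 and 30170 bases for Ntrk3, beside a median of 4274 over the genes tested. Across 14245 genes the difference correlated with exon length (Spearman's rho 0.412), where single genes are not replicates. With the exon-length trend taken out, the difference was 0.30 for Ntrk2, with an adjusted p of 0.039 for fraction alone and 0.21 with the pool. It was 0.09 for Ntrk3, with an adjusted p of 0.64 for fraction alone and 0.78 with the pool. Whether exon length accounts for these differences was not tested.

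Sort1 (ENSMUSG00000068747, chromosome 3, 108284082 to 108361511, plus strand) showed the narrowest spread in TRAP relative to its level. It was at 129, 120, 125 and 121 CPM in TRAP and at 58.1, 43.8, 58.0 and 70.5 CPM in INPUT. As for Bdnf, the highest INPUT library was VP2.11 and the lowest TRAP library VP2.2. The means were 124 ± 3.89 CPM (SD, n = 4) and 57.6 ± 10.9 CPM (SD, n = 4), or 2.18-fold. Its log2 fold change was 1.12 (SE 0.15, or 0.21 with the pool in the model), with a limma adjusted p of 3.1e-04 for fraction alone and 0.0014 with the pool. Pools differed by 1.15, 1.46, 1.11 and 0.78. The antisense gene Gm12523 covers 338 bases, or 4.47%, of its exons.

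Ret (ENSMUSG00000030110, chromosome 6, 118151745 to 118197718, minus strand) was low in INPUT and higher in TRAP. TRAP libraries gave 4.54, 5.61, 4.53 and 5.06 CPM, and INPUT libraries 0.944, 0.870, 1.67 and 2.57 CPM. Only 2 of the INPUT libraries were over 1 CPM, so that Ret too passed the filter through TRAP. The means were 4.94 ± 0.512 CPM (SD, n = 4) and 1.51 ± 0.790 CPM (SD, n = 4). The log2 fold change was 1.84 (SE 0.36, or 0.48 with the pool in the model), and limma gave an adjusted p of 0.0022 for fraction alone and 0.0092 with the pool. Differences within the pools were 2.27, 2.69, 1.44 and 0.98.

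The RET co-receptor genes did not share this pattern. Gfra1 (ENSMUSG00000025089, chromosome 19, 58235604 to 58455909, minus strand) was at 13.8, 16.3, 12.4 and 11.7 CPM in TRAP and at 19.3, 16.8, 19.5 and 17.5 CPM in INPUT. In VP2.2 the levels were nearly equal, and in the other pools INPUT was higher by 0.48 to 0.66 on the log2 scale. The means were 13.6 ± 2.05 CPM (SD, n = 4) and 18.3 ± 1.35 CPM (SD, n = 4). The fitted log2 fold change was -0.44 (SE 0.16, or 0.26 with the pool in the model). Its limma adjusted p was 0.039 for fraction alone and 0.21 with the pool, so the call was lost with the block. It was also lost without the block when any single pool other than VP2.2 was left out. The antisense gene Gm16277 covers 416 bases, or 7.60%, of the Gfra1 exons.

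Gfra2 (ENSMUSG00000022103, chromosome 14, 70890120 to 70979838, plus strand) was at 16.8, 20.9, 15.8 and 17.8 CPM in TRAP and at 14.9, 11.2, 15.9 and 15.5 CPM in INPUT. The fractions overlapped, since INPUT VP2.6 was a little above TRAP VP2.6. The means were 17.8 ± 2.19 CPM (SD, n = 4) and 14.4 ± 2.13 CPM (SD, n = 4). Its fitted log2 fold change was 0.31 (SE 0.17, or 0.27 with the pool in the model), with a limma adjusted p of 0.14 for fraction alone and 0.39 with the pool. The 95% interval with the block reached from -0.25 to 0.88, so neither no difference nor one of almost the size seen for the Trk receptors lay outside it.

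**Figure D2:**
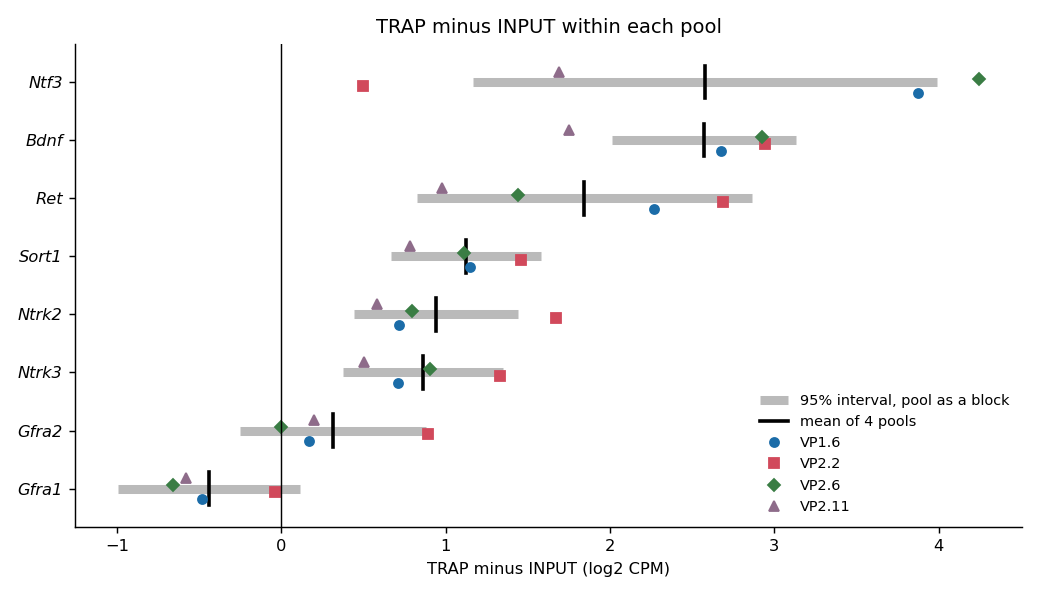
TRAP minus INPUT (log2 CPM) of each gene in each of the 4 pools (coloured symbols), with the mean (black line) and the 95% interval from the model with the pool included (grey bar). Intervals of Ntf3, Bdnf, Ret, Sort1, Ntrk2 and Ntrk3 lie above 0, and those of Gfra1 and Gfra2 include 0. For 7 of the 8 genes the rightmost symbol is VP2.2.

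Pool VP2.2 held the highest TRAP minus INPUT difference for 7 of the 8 genes, all but Ntf3. Its INPUT library was the lowest of the 4 for those 7 genes and the highest for Ntf3. Among the 6 genes higher in TRAP in 4 of 4 pools, VP2.2 held the largest difference for 5, and among all 3320 such genes for 44.3%, beside 16.6% to 20.3% for the other pools. The lowest difference fell in VP2.11 for 5 of the same 6 genes and for 30.9% of the 3320.

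Differences between genes were compared within pools for 5 pairs, with exact two-sided sign-flip permutation over the 4 pools, where the smallest possible p is 0.125. Gfra1 and Gfra2 differed in their TRAP minus INPUT value by -0.75 (range -0.93 to -0.65), with Gfra1 lower in 4 of 4 pools (exact p = 0.125, adjusted over the pairs 0.208). Ret exceeded Gfra1 by 2.28 (range 1.56 to 2.75) and Gfra2 by 1.53 (range 0.78 to 2.10), each in 4 of 4 pools and with the same exact p and adjusted p. Ntrk2 and Ntrk3 differed by 0.08, with a 95% interval of -0.23 to 0.39 (exact p = 0.625, adjusted 0.781). Bdnf and Ntf3 had nearly the same mean difference, but their pools scattered so widely that the 95% interval ran from -2.79 to 2.78 (exact p = 1). With 4 pools this exact test cannot reach the threshold for any of the 5 pairs. The 95% intervals rest on the spread of the 4 pools, are not adjusted over the 5 pairs and do not replace that test. They were -0.96 to -0.54 for Gfra1 against Gfra2, 1.38 to 3.19 for Ret against Gfra1 and 0.63 to 2.43 for Ret against Gfra2.

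To order the genes by abundance, levels were divided by annotated exon length and are given in CPM per kilobase. In TRAP, Sort1 at 16.4 ± 0.514 (SD, n = 4) and Ntrk2 at 14.8 ± 1.01 led, and the ranges of these neighbours overlapped. Bdnf followed at 9.96 ± 0.978 and Gfra2 at 5.03 ± 0.620, each apart from its neighbours. Ntf3 at 2.59 ± 0.675 and Gfra1 at 2.48 ± 0.375 overlapped, and Ntrk3 at 1.95 ± 0.0940 and Ret at 0.730 ± 0.0756 came last. In INPUT the order was Ntrk2 at 7.91 ± 1.91, Sort1 at 7.61 ± 1.45, Gfra2 at 4.06 ± 0.602, Gfra1 at 3.34 ± 0.246, Bdnf at 1.80 ± 0.880, Ntrk3 at 1.09 ± 0.211, Ntf3 at 0.631 ± 0.551 and Ret at 0.224 ± 0.117. Apart from Sort1 and Gfra2, every pair of neighbours in INPUT had overlapping ranges. Bdnf thus was in the third place in TRAP and in the fifth in INPUT. With the longest annotated transcript in place of all exons, 5 of the 8 genes took another place in TRAP and 0 in INPUT. Ratios within a fraction followed from the same levels per kilobase. Gfra1 exceeded Ret 3.38-fold in TRAP and 16.4-fold in INPUT, and Gfra2 exceeded Ret 6.89-fold in TRAP and 19.9-fold in INPUT. Over libraries, Gfra1 to Ret ran from 2.86 to 3.75 in TRAP and from 8.42 to 25.2 in INPUT. Gfra2 to Ret ran from 6.67 to 7.12 in TRAP and from 11.5 to 30.2 in INPUT. The INPUT ratios rest on low values, as Ret was over 1 CPM in only 2 INPUT libraries. Ntrk2 exceeded Bdnf 1.49-fold in TRAP and 4.63-fold in INPUT, whereas Ntrk2 exceeded Ntrk3 7.60-fold in TRAP and 7.19-fold in INPUT. These ratios depend on the length used. Per kilobase of the longest transcript, Ntrk2 was at 32.7 in TRAP, above and apart from Sort1 at 18.1, and Bdnf at 14.51, while in INPUT Ntrk2 was at 17.5 and Bdnf at 2.62.

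**Figure D3:**
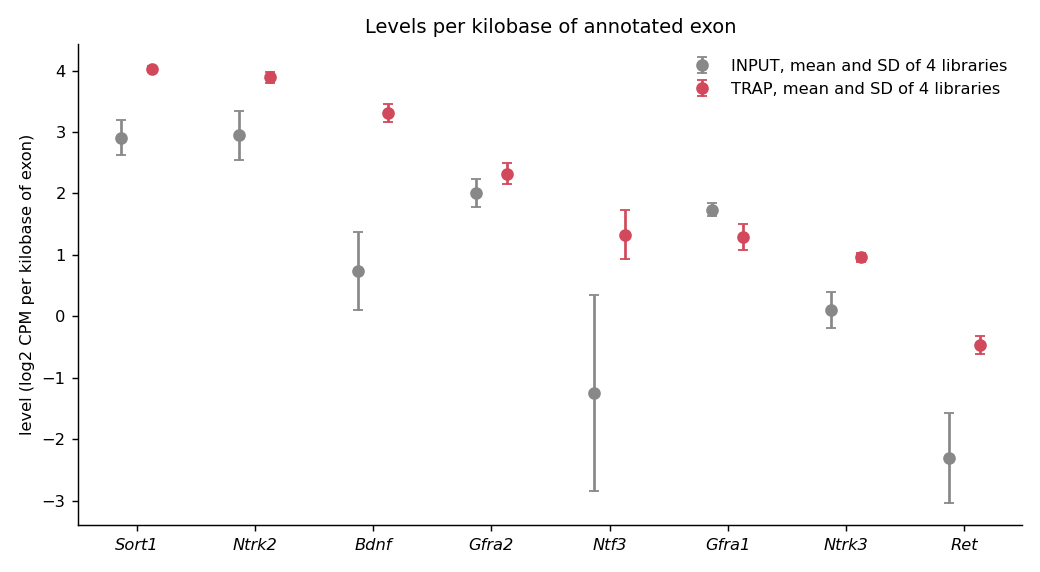
Level of each gene on a log2 scale of CPM per kilobase of annotated exon, as mean and SD of the 4 libraries of a fraction, TRAP in red and INPUT in grey, ordered by TRAP. Gfra1 is the only gene whose TRAP mean lies below its INPUT mean.

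The other ligands and receptors of these families were few. Of the neurotrophin family, Ntf5 had no row. Ngfr, which encodes the p75 neurotrophin receptor, was at 4.28 ± 1.56 CPM in TRAP and 4.69 ± 0.908 CPM in INPUT (SD over n = 4 libraries for each) and passed in neither fit, with a difference of -0.20. Of the GDNF family, Gdnf, Nrtn, Artn, Pspn, Gfra3 and Gfral had no row, so no ligand of RET was listed. Ncam1, an adhesion molecule that also serves as a signalling partner of GFRα1, was higher in TRAP in both fits, at 304 ± 66.7 against 97.2 ± 9.07 CPM (log2 fold change 1.62, limma adjusted p 1.2e-04 and 1.8e-04). Gas1, which encodes a GFRα-like surface protein, was lower in both fits, at 0.499 ± 0.422 against 4.10 ± 1.33 CPM (log2 fold change -3.56, adjusted p 0.0029 and 0.0038). It passed the filter through INPUT, as its TRAP values ran from 0.0654 to 1.07 CPM. The other gene lower without the block was the co-receptor gene Gfra4, named here after its values were seen. It was at 10.8 and 16.5 CPM, with an adjusted p of 0.010 for fraction alone and 0.087 with the pool.

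Of 13 sortilin family and p75 partner genes, 9 were higher and 1 lower without the block, and 7 were higher and 0 lower with it, with a median difference of 0.97. Among all genes tested, 23.2% were higher and 24.8% lower without the block, and 15.4% and 16.8% with it. These shares also stand beside the lists that follow. Sorl1, which encodes a sorting receptor related to sortilin, was at 420 CPM in TRAP and 95.6 in INPUT (log2 fold change 2.17). Sorcs2, which encodes a receptor of the same family that binds proneurotrophins, was at 34.1 and 8.68 CPM (1.93). The Nogo receptor gene Rtn4r was at 3.22 and 0.887 CPM (1.87), where INPUT ran from 0.437 to 1.19 CPM so that Rtn4r passed the filter through TRAP, and its partner Lingo1 at 57.3 and 25.6 CPM (1.15). All 4 were higher in 4 of 4 pools, with limma adjusted p from 4.7e-05 to 0.024 with the block.

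Genes listed under proneurotrophin processing, not all of them for cutting enzymes, numbered 11. Of these, 6 were higher and 1 lower without the block and 4 and 0 with it, with a median of 0.43. The proprotein convertase gene Pcsk1 was at 21.01 CPM in TRAP and 6.80 in INPUT (log2 fold change 1.73) and Pcsk5 at 9.11 and 3.54 CPM (1.34). Plat, which encodes tissue plasminogen activator, was at 36.6 and 20.4 CPM (0.84), and Pcsk2 at 182 and 113 CPM (0.68).

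The list of adaptor and signalling genes of Trk and RET had 50 genes with a row, and Dok6 had none. Of the 50, 10 were higher and 4 lower without the block and 7 and 4 with it, and the median was 0.09. The 50 include Pdk1, the symbol of a mitochondrial kinase outside this pathway, which passed in neither fit. Higher calls were about as frequent as among all genes, at 23.2% without the block and 15.4% with it. Lower calls were less frequent than the 24.8% and 16.8% of all genes. Higher in both fits were the ubiquitin ligase genes Nedd4, at 1031 against 383 CPM (1.52), Cbl, at 32.9 against 15.5 CPM (1.15), and Cblb, at 16.4 against 7.48 CPM (1.12). The adaptor gene Sh2b3 was at 11.7 ± 10.1 CPM in TRAP and 3.80 ± 0.992 in INPUT, and passed in both fits (adjusted p 0.031 in each) although its difference ran from near 0 to 3.05 over the pools. Lower in both fits were the small GTPase genes Nras, at 56.7 against 138 CPM (-1.32), and Hras, at 30.1 against 59.1 CPM (-0.98). The kinase genes Akt2, at 21.3 against 46.4 CPM (-1.12), and Map2k5, at 12.6 against 20.7 CPM (-0.75), were lower as well. Of 16 response genes of BDNF and TrkB signalling, 3 were higher and 3 lower without the block and 1 and 1 with it, with a median of 0.02. Calls in either direction were no more frequent than among all genes, in either fit. Only Fos and Spry2 were called in both fits. The immediate early gene Fos was at 61.3 against 20.7 CPM (1.53), and Spry2, an inhibitor of receptor tyrosine kinase signalling, at 72.0 against 224 CPM (-1.62).

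Over all 96 listed pathway genes with a row, 29 were higher and 12 lower without the block, and 20 and 6 with it, with a median difference of 0.11. Without the block these are 30.2% higher and 12.5% lower, and with it 20.8% and 6.25%, to be read beside the shares of all genes given above. The lists too were chosen with earlier results of these data known, so these shares describe them and are no test. With libraries weighted by quality and no block, 30 were higher and 25 lower, so the number of lower genes depends on the weighting. Over all 14249 genes tested, 4067 were higher and 4578 lower with these weights.

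**Figure D4:**
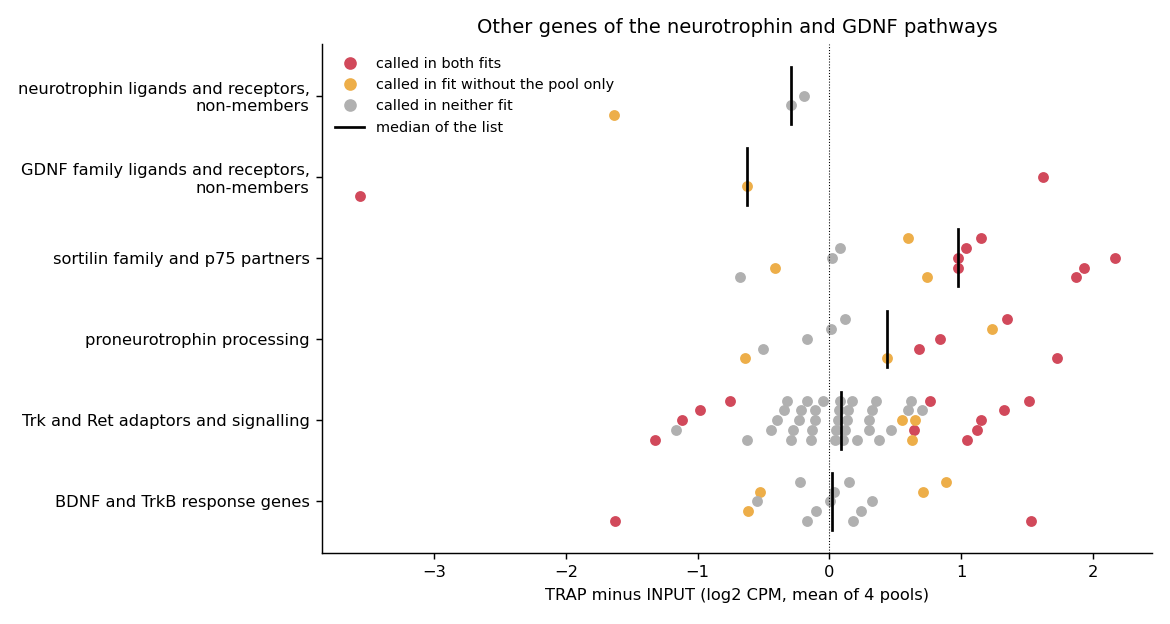
TRAP minus INPUT (log2 CPM, mean of 4 pools) of the other genes of the neurotrophin and GDNF pathways, 1 point per gene, grouped by list. Red points passed in both fits, yellow points in the fit without the pool only and grey points in neither. Black lines mark the median of each list, which is 0.97 for the sortilin family and p75 partners and 0.09 for the adaptors.

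Cholinergic neurons of the basal forebrain are a known site of Ngfr, and their markers were measured beside it. Chat, which encodes the enzyme that makes acetylcholine, was at 59.2 ± 12.9 CPM in TRAP against 37.0 ± 11.0 CPM in INPUT (SD over n = 4 libraries for each), with a limma adjusted p of 0.034 for fraction alone and 0.066 with the pool. Of 3 cholinergic markers 1 was higher and 1 lower without the block and 0 and 1 with it, with sums of 87.8 to 137 CPM in TRAP and 39.4 to 84.1 CPM in INPUT. The other markers, Slc18a3 and Slc5a7, are named after their values were seen. Slc18a3 was lower in both fits, at 2.37 against 6.62 CPM (log2 fold change -1.75, limma adjusted p 0.0086 for fraction alone and 0.013 with the pool). Slc5a7 passed in neither, at 42.4 against 25.4 CPM. Striatal medium spiny neuron genes were lower in TRAP in 6 of 7, with sums of 412 to 656 CPM in TRAP and 1001 to 1532 CPM in INPUT. Oligodendrocyte genes were lower in 6 of 7 in both fits, at 1259 to 2165 against 4654 to 4874 CPM, and microglial genes in 7 of 7 without the block and 5 with it, at 24.8 to 33.1 against 85.7 to 135 CPM. Not all markers of other cells were low in TRAP. Named after their values were seen, the endothelial gene Flt1 was higher in both fits, at 8.90 against 1.56 CPM, as was the oligodendrocyte precursor gene Cspg4, at 19.9 against 5.31 CPM, and the oligodendrocyte gene Mag was higher without the block only, at 105 against 69.7 CPM. In all, of 5 endothelial and mural genes with a row 1 was higher and 0 lower in both fits, with sums of 20.3 to 60.9 CPM in TRAP and 22.7 to 30.9 CPM in INPUT. Of 3 oligodendrocyte precursor genes 1 was higher and 1 lower in both fits, with sums of 26.5 to 47.4 and 23.2 to 38.1 CPM. Of 5 pan-neuronal genes, 5 were higher for fraction alone and 4 with the pool. They summed to 19041 to 27473 CPM in TRAP and 5480 to 10591 CPM in INPUT. Their median difference was 0.95, beside 1.03 for the 8 genes. The part of these cell types in the levels of the 8 genes was not tested.

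For 7 of the 8 genes, the gene whose log2 CPM followed it most closely over the 8 libraries is given. It was found by Pearson's r, as a description with no test, since 8 libraries in 2 fractions give many near matches. The closest gene was Usp43 for Ntf3 (r = 0.994), Nedd4 for Ntrk2 (0.9997) and Acad9 for Ntrk3 (0.998). For Sort1 it was Coro7 (0.9995), for Gfra1 Isoc1 (0.996), for Gfra2 Thada (0.998) and for Ret Rtl4 (0.993).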

How the data were processed

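RNA-seq values of 4 TRAP and 4 INPUT libraries were used. By their methods, the authors aligned reads with STAR 2.5.1a to Ensembl mouse GRCm38, used featureCounts for uniquely aligned reads, scaled libraries by TMM and fitted limma with voom and sample weights. The deposited per-library values are log2 CPM. The table also holds the authors' fold changes, limits and p-values, which were not used. Its 45 repeated entries were left out. Values carry only 3 significant digits in both VP2.11 libraries and in INPUT of VP1.6. The table gives no counts, so the depth of each library is unknown. A whole-read pattern was searched in the within-pool differences of low genes only. It held for 47.9% of them in VP2.2 and 69.2% in VP2.6, but for 0.04% in VP1.6 and 0.12% in VP2.11, so no count test was run.

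The 14249 genes that exceeded 1 CPM in 3 or more libraries were fitted with limma 3.58.1 in R 4.3.3 (lmFit, eBayes with a trend) on fraction alone, and again with the pool as a block. P-values were adjusted by Benjamini-Hochberg over all of them, with 0.05 as the threshold. Pools pair the libraries because both came from 1 homogenate. Same-pool libraries deviated from their fraction means in opposite directions (r across genes -0.745 to -0.495, against 0.0457 to 0.441 between pools), and how the values came to do so was not resolved. Whether the deposited values were adjusted by pool, beyond scaling to library size, was not tested. The script was tested on simulated data without such opposed deviations, so the error rates of the calls under them are not known. Whether pools are independent beyond their mice is not stated. P-values for fraction alone measure the spread of libraries within each fraction, and those with the pool measure the spread of within-pool differences. Where same-pool deviations are opposed, the fit on fraction alone tends to understate the error of TRAP minus INPUT. Its SE was smaller than with the block for Ntrk2, Ntrk3, Sort1, Gfra1, Gfra2 and Ret, and slightly larger for Bdnf and Ntf3. Exon lengths came from GENCODE M21 (14349 genes matched) and promoters from RefSeq. Alternatives changed the block, weights, filter, scale, exon-length trend and libraries left out.

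The 8 genes and all lists were chosen with earlier results of these data known. Besides the 8, the rule named genes called in both fits, at most 4 per list and direction by size, as well as Ngfr, Gdnf, Nrtn, Sorcs2, Ncam1, 5 cell type markers and the closest gene to each of the 8. Some genes that the rule names are not reported here.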

Additional observations from a re-analysis of the deposited data

Results flagged for a closer look

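In 1 of 16 groups of 4 libraries (8 genes in 2 fractions) a library stood apart by Dixon's test. It was Bdnf in TRAP VP2.2, at 5.72 log2 CPM, whereas the other TRAP libraries were at 6.00 to 6.05. Chance alone gives about 0.8 of 16 such groups. Bdnf was nonetheless higher in TRAP by 2.95 in that pool, the highest of the 4, since INPUT VP2.2 was also the lowest of its fraction.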

How the results depend on the processing

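No call reversed direction under any alternative. Bdnf and Sort1 passed in all 28 alternatives (log2 fold change 2.37 to 2.87 and 0.83 to 1.24), Ret in all 27, and Gfra2 in none of 28. Gfra1 kept its call in 11 of 28, Ntf3 in 25 of 27, Ntrk2 in 27 of 28 and Ntrk3 in 25 of 28. With the replicate block (the pool), 6 of the 8 genes were called in place of 7, pathway genes fell from 41 to 26, and all genes from 6830 to 4592. It changed the call of Gfra1 and of no other among the 8. With the exon-length trend taken out and the replicate block, 4 of the 8 and 24 of the 96 pathway genes were called. Over all 14245 genes in that setting, 4610 were called (2189 higher and 2421 lower). Library weights without the block called 55 pathway genes (30 higher and 25 lower), and with it 33 (23 and 10). Over all 14249 genes, the weights called 8645 (4067 higher and 4578 lower) without the block and 6013 (2822 and 3191) with it. A minimum change of 1 on the log2 scale left 4 of the 8 and 3528 genes. With libraries or pools left out, the count over all genes ran from 3232 (without pool VP1.6, with the block) to 7167 (without TRAP VP2.11), that over pathway genes from 20 to 41 and that over the 8 genes from 5 to 7. By longest transcript, 5 genes changed place in the TRAP order. The cause of these shifts was not tested. For Ntf3 and for Ret, 2 INPUT libraries were under 1 CPM, where unknown depth limits precision most.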
